A study of Mus musculus with 6 samples.

Results

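The genes described here encode the 5 subunits of the transcription factor NF-κB (Nfkb1, Nfkb2, Rela, Relb and Rel) and 5 of its inhibitors (Nfkbia, Nfkbib, Nfkbid, Nfkbie and Tnfaip3). They were taken by gene name from the table of 11175 genes, where all 10 were found, and all 10 were among the 10887 genes with a mean of at least 1 FPKM (fragments scaled for gene length and library size) that were tested. RNA came from CD8+ T cells of the mouse spleen, labelled wild type (WT), that were stimulated for 48 h with antibodies against CD3 and CD28. The DOPAC group (3 libraries) was stimulated with DOPAC present and the control group (3 libraries) without it. DOPAC, short for 3,4-dihydroxyphenylacetic acid, is a breakdown product of dopamine. The labels used here give no dose, sex, age or strain, and do not say whether the replicates came from separate mice or cultures, so the p-values rest on library-to-library spread alone, which may be technical. The comparison asked how DOPAC altered the transcriptome of activated CD8+ T cells.

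NF-κB is a family of dimeric transcription factors that in resting cells are held in the cytoplasm by inhibitors of the IκB group. Signals from the antigen receptor, CD28 and receptors of the TNF receptor family activate the IκB kinase, the inhibitors are degraded, and the dimers enter the nucleus. In T cells they drive genes of survival, proliferation and cytokine production. Several of their targets are the family's own inhibitors, which close a negative feedback loop, and other targets are the genes of some subunits. Rela and Rel carry the transactivation domains of the classical pathway, Nfkb1 encodes the precursor of their usual partner, and Nfkb2 and Relb form the alternative pathway.

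Since some of these genes are themselves NF-κB targets, their promoters are shown first. RefSeq promoters (GRCm38.p6, 250 bases before to 50 after a transcription start) matched 8 of the 10 genes by symbol, without Nfkb1 and Relb. They were searched on both strands for a form of the κB element that reads GGG, any base at 2 positions, TT, any base, CC. These letters occurred in a promoter of 5 of the 8 matched genes, and in 4.79% of 32851 promoters, or 5.48% of 27025 genes. The wider κB consensus occurred in 6 of the 8 and in 9.55% of genes. The matches of both searches can overlap. The stretches of 30 bases around each match of the first motif are given next, 5′ to 3′ on the strand of the gene, with the matching letters in capitals.

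Nfkb2 (chr19:46304688-46304717, plus strand): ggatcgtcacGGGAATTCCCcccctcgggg

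Nfkb2 (chr19:46304717-46304746, plus strand): gggccgaaaGGGGCTTTCCCggctggagcc

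Nfkb2 (chr19:46305695-46305724, plus strand): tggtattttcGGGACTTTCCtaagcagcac

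Rel (chr11:23771041-23771070, minus strand): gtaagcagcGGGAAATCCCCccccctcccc

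Nfkbia (chr12:55492657-55492686, minus strand): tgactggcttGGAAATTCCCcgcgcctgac

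Nfkbid (chr7:30422170-30422199, plus strand): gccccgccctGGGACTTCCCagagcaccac

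Tnfaip3 (chr10:19015403-19015432, minus strand): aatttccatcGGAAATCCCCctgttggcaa

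The second stretch of Nfkb2 and that of Rel each hold a pair of matches shifted by 1 base. Counted from the transcription start, with bases before it negative, the match of Nfkbia, the gene of IκBα, began at -29 and that of Tnfaip3 at -12. In Nfkb2, matches began at -39, -11 and -10 from one start, and in Rel at -92 and -91. The match in the third Nfkb2 stretch began at base 11 from a later start of that gene, and that of Nfkbid at -226 in 1 of its 3 promoters. Nfkbie held the wider consensus alone. Rela and Nfkbib held neither in these windows. A match describes letters, not binding.

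All 10 genes were expressed at 48 h in both groups. FPKM are per length, so levels of different genes can be set side by side, but only roughly. The means include Control replicate 1, which varied with gene length and was the lowest library for Nfkb1, Rela, Rel, Nfkbie and Tnfaip3. Over the 6 libraries the mean level was highest for Nfkb1 at 38.2 ± 8.17 FPKM (SD) and next for Nfkb2 at 32.5 ± 2.80 FPKM, whose range lay wholly above that of Nfkbia. Nfkbia (25.7 FPKM), Rela (24.3 FPKM), Rel (23.8 FPKM) and Nfkbib (21.7 FPKM) followed closely. Neighbours in this group of 4 overlapped in range and their order differed between libraries, as it did for Nfkb1 and Nfkb2, where Nfkb1 was above Nfkb2 in 5 of 6 libraries. Nfkbid averaged 16.2 FPKM. Relb (6.95 FPKM), Tnfaip3 (6.39 FPKM) and Nfkbie (6.31 FPKM) were the lowest, with overlapping ranges, and lay wholly below Nfkbid.

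The libraries differed in ways that touch these genes. Control replicate 1 correlated with the other 5 libraries at 0.899 to 0.917 over genes (Pearson's r, genes not being independent), against 0.974 to 0.992 among those 5. In it, genes with summed exon lengths over 500 and up to 1000 bp differed from the mean of the other 5 by a median of 0.60 on the log2 scale, and genes over 8000 bp by -0.67. CD8 T cell markers (11 of 11 in the table) summed to between 1189 and 1330 FPKM with DOPAC and between 1270 and 1392 FPKM in the controls. Of the macrophage and monocyte markers, 3 of 12 were analysed here and summed to between 4.77 and 13.0 FPKM with DOPAC and between 15.4 and 35.2 FPKM in the controls. The 4 analysed of 6 fibroblast markers summed to between 0.353 and 16.4 FPKM with DOPAC and between 27.1 and 29.3 FPKM in the controls. The 2 analysed of 10 dendritic cell markers went opposite ways. H2-Ab1 lay between 1.85 and 2.94 FPKM with DOPAC and between 0.419 and 0.882 FPKM in the controls, and Cd74 between 8.53 and 11.2 FPKM with DOPAC and between 12.8 and 13.4 FPKM in the controls. Csf1r, Adgre1, Itgam, Itgax and Pdgfra were among the markers not analysed here. Of the B cell markers, 3 of 11 were analysed and summed to between 130 and 159 FPKM with DOPAC and between 148 and 160 FPKM in the controls. Most of this was Ighm, between 126 and 154 FPKM with DOPAC and between 143 and 154 FPKM in the controls. Cd79b lay between 1.47 and 2.61 FPKM with DOPAC and between 1.54 and 2.49 FPKM in the controls. In bulk RNA, fewer cells of a type and less RNA per cell cannot be told apart.

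**Figure D1:**
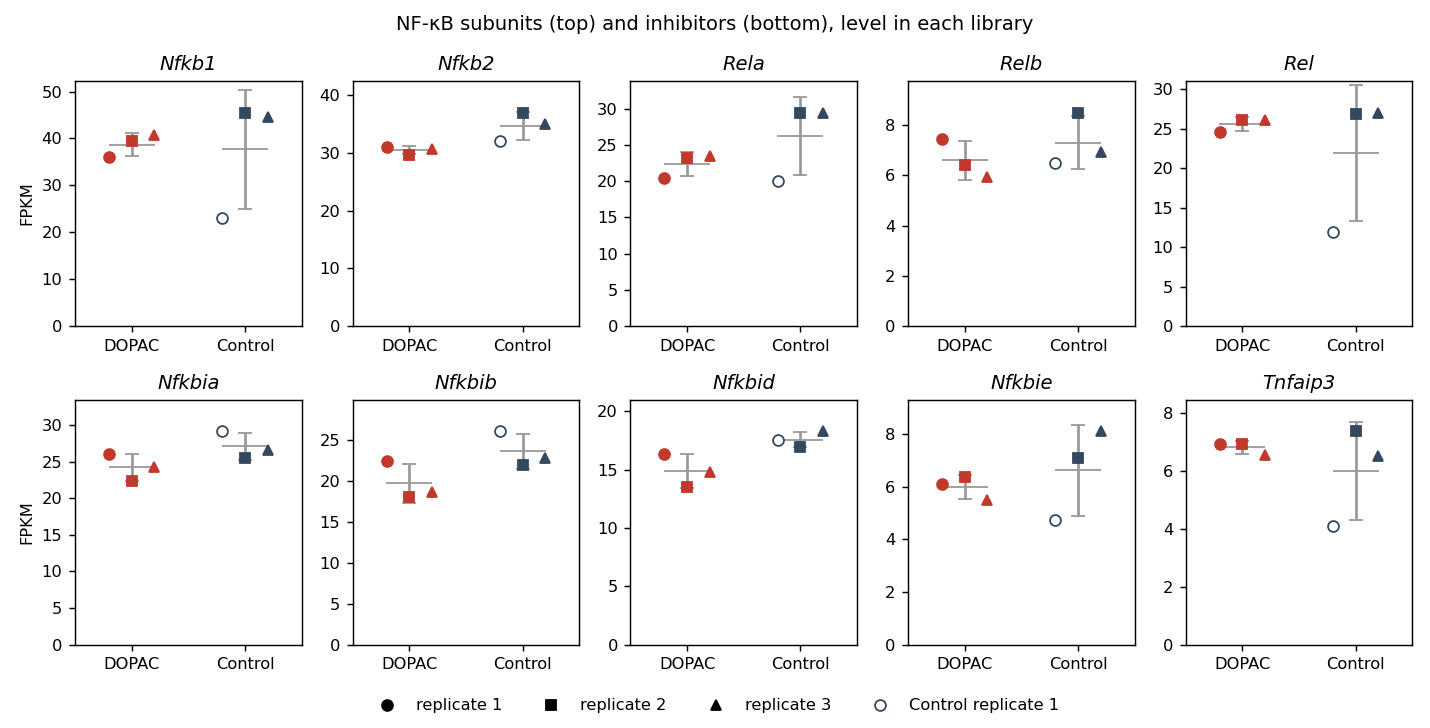
FPKM of each gene (vertical axes, starting at 0) in the 3 DOPAC libraries (red, left) and the 3 control libraries (dark, right), with subunits above and inhibitors below; symbols mark replicate numbers, the open circle is Control replicate 1, and bars give the mean and SD of each group. Control replicate 1 lies far below all other libraries for Rel (12.0 FPKM) and Nfkb1 (23.1 FPKM) and above them for Nfkbib (26.1 FPKM).

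No gene of the family passed the test. With limma's moderated test 0 of the 10 genes passed a Benjamini-Hochberg adjusted p of 0.05, and 0% of the 10887 genes tested did; the adjusted p of the 10 lay between 0.801 and 0.920. Unadjusted, 0 of the 10 had a p under 0.05, against 4.19% of all genes (1.46% lower and 2.73% higher with DOPAC). Log2 fold changes were negative, that is lower with DOPAC, for 7 of the 10, where 37.9% of all genes were negative and 62.1% positive. Their median was -0.14, beside 0.066 for all genes tested. Without Control replicate 1 all 10 were negative, where 52.7% of all genes were and 47.3% were positive, with a median of -0.21 beside -0.011. In that comparison 4 of the 10 (Nfkb1, Nfkb2, Rela and Nfkbie) were lower at an unadjusted p under 0.05, as were 8.89% of all genes, while 5.57% of all genes were higher. The adjusted threshold was passed by 0 of the 10 (limma, lowest adjusted p 0.295) and by 0.0184% of all genes. The DOPAC libraries then lay wholly below the other 2 controls for 6 of the 10 (Nfkb1, Nfkb2, Rela, Rel, Nfkbid and Nfkbie), as they did for 21.5% of all genes. With the replicate number added to that comparison as a block, 6 of the 10 were lower at an unadjusted p under 0.05, beside 9.9% of all genes. In that fit DOPAC replicate 1 has no partner and adds nothing to the fold change. Only replicates 2 and 3 of each group are then compared. Relb, Nfkbib and Nfkbid came under that level with the block, and Nfkb1 was no longer under it. DOPAC replicate 1 was the highest DOPAC library for Relb, Nfkbib and Nfkbid. The lower summed macrophage and fibroblast marker levels with DOPAC, with lower Cd74 and higher H2-Ab1, accompany these values, and their part in them was not tested.

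Among the subunits of the classical pathway, Rela (GRCm38 chr19:5637483-5648130, plus strand) encodes the main transactivating subunit in most cells. It had 20.4, 23.2 and 23.4 FPKM in the DOPAC libraries, against 20.0, 29.4 and 29.4 FPKM in the controls. All 3 DOPAC libraries lay below control replicates 2 and 3, which were nearly equal, and above Control replicate 1, so the groups overlapped. For Rela the log2 fold change was -0.21 (95% interval -0.64 to 0.22, unadjusted p = 0.289), and without Control replicate 1 it was -0.38 (95% interval -0.59 to -0.18, unadjusted p = 0.0034; limma adjusted p = 0.295). That was the lowest unadjusted p among the 10 genes in that comparison.

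Rel (chr11:23736847-23770970, minus strand) encodes c-Rel, a subunit found mainly in lymphocytes. It had 24.6, 26.0 and 26.1 FPKM with DOPAC, against 12.0, 26.8 and 27.0 FPKM in the controls. The other 5 libraries were within a narrow range and Control replicate 1 had less than any of them. Over all libraries the log2 fold change was 0.30 (95% interval -0.43 to 1.02) and turned to -0.07 (95% interval -0.23 to 0.09) without that library.

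Nfkb1 (chr3:135584655-135691547, minus strand) had 36.0, 39.5 and 40.7 FPKM with DOPAC, against 23.1, 45.4 and 44.6 FPKM in the controls. Control replicate 1 was again the lowest library, and the other 2 controls were above every DOPAC library. Its log2 fold change was 0.097 (95% interval -0.53 to 0.73), and it turned to -0.21 (95% interval -0.40 to -0.03, unadjusted p = 0.032; limma adjusted p = 0.320) without Control replicate 1.

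Of the alternative pathway, Nfkb2 (chr19:46304320-46312385, plus strand) encodes a precursor that is processed to a DNA-binding subunit. It had 31.0, 29.7 and 30.6 FPKM with DOPAC, against 32.0, 36.9 and 35.0 FPKM in the controls. Every DOPAC library lay below every control, which was so for 2 of the 10 genes, the other being Nfkbid, and for 4.8% of all genes tested. For both genes an exact two-sided permutation test gave p = 0.1, the smallest that 3 against 3 libraries allow. For Nfkb2 the log2 fold change came to -0.18 (95% interval -0.45 to 0.10, unadjusted p = 0.175), and to -0.23 (95% interval -0.39 to -0.07, unadjusted p = 0.012; limma adjusted p = 0.295) without Control replicate 1. The libraries do not mark strand, and 531 bp of Nfkb2 exons overlap AC114539.1 and 299 bp overlap Psd on the other strand. These 2 genes had at most 1.60 FPKM with DOPAC and at most 2.69 FPKM in the controls.

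Relb (chr7:19606217-19629438, minus strand), the partner of the processed Nfkb2 product, had 7.45, 6.39 and 5.93 FPKM with DOPAC, against 6.49, 8.48 and 6.94 FPKM in the controls. The groups overlapped with and without Control replicate 1. Its log2 fold change was -0.13 (95% interval -0.49 to 0.23) with all libraries and -0.20 (95% interval -0.49 to 0.10) without that one.

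**Figure D2:**
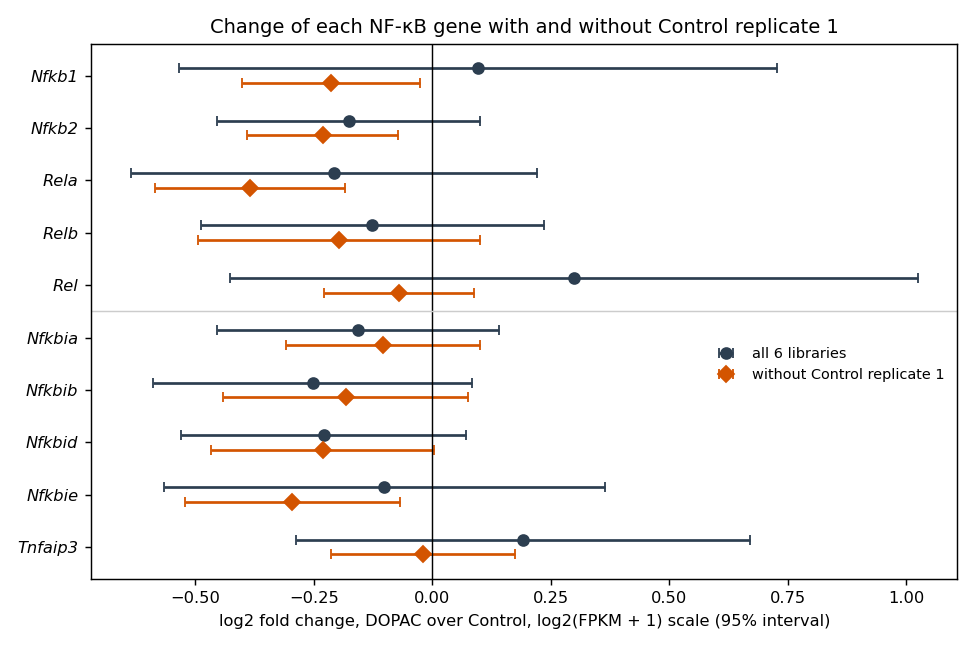
Log2 fold change, DOPAC over control, with its 95% interval (horizontal axis) for each gene (rows; subunits above the grey line, inhibitors below), with all 6 libraries (dark circles) and without Control replicate 1 (orange diamonds). Every interval over all 6 libraries includes 0; without that library all 10 points lie below 0 and the intervals of Nfkb1, Nfkb2, Rela and Nfkbie exclude it.

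Among the inhibitors, Nfkbia (chr12:55489410-55492647, minus strand) encodes IκBα, which is degraded and resynthesised within the feedback loop. It had 26.1, 22.4 and 24.3 FPKM with DOPAC, against 29.2, 25.6 and 26.6 FPKM in the controls. DOPAC replicate 1 lay between the controls and the other 2 below all of them. The log2 fold change was -0.16 (95% interval -0.45 to 0.14), and -0.10 (95% interval -0.31 to 0.10) without Control replicate 1.

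Nfkbib (chr7:28758251-28767512, minus strand), which encodes IκBβ, had 22.4, 18.0 and 18.7 FPKM with DOPAC, against 26.1, 22.0 and 22.8 FPKM in the controls. DOPAC replicate 1 overlapped the controls. Exons of Nfkbib share 314 bp with Ccer2 (not analysed here) and 42 bp with Sirt2, both on the other strand. Nfkbib had the most negative log2 fold change of the 10, at -0.25 (95% interval -0.59 to 0.083, unadjusted p = 0.117), and -0.18 (95% interval -0.44 to 0.075) without Control replicate 1.

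Nfkbid (chr7:30421732-30428746, plus strand) encodes IκBNS, an atypical inhibitor that acts in the nucleus. It had 16.4, 13.5 and 14.8 FPKM with DOPAC, against 17.5, 16.9 and 18.3 FPKM in the controls, without overlap. The log2 fold change was -0.23 (95% interval -0.53 to 0.071, unadjusted p = 0.113) and barely depended on Control replicate 1, at -0.23 (95% interval -0.47 to 0.0045, unadjusted p = 0.053) without it.

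Nfkbie (chr17:45555703-45563169, plus strand), the gene of IκBε, had 6.08, 6.39 and 5.51 FPKM with DOPAC, against 4.72, 7.07 and 8.10 FPKM in the controls. The DOPAC libraries lay between Control replicate 1 and the other controls. Its log2 fold change was -0.10 (95% interval -0.57 to 0.36), and -0.30 (95% interval -0.52 to -0.068, unadjusted p = 0.019; limma adjusted p = 0.299) without Control replicate 1. Leaving out Control replicate 3 instead turned its sign (0.039).

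Tnfaip3 (chr10:19000910-19015657, minus strand) encodes A20, a ubiquitin-editing enzyme that shuts off signalling above the IκB kinase. It had 6.92, 6.93 and 6.55 FPKM with DOPAC, against 4.10, 7.35 and 6.49 FPKM in the controls. The DOPAC libraries lay within the range of the controls. For Tnfaip3 the log2 fold change was 0.19 (95% interval -0.29 to 0.67), and -0.02 (95% interval -0.21 to 0.17) without Control replicate 1.

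The position of Control replicate 1 went with gene length across the family as a whole, but not among the genes of middle length. The longest summed exon lengths were those of Nfkb1 (12061 bp), Rel (7466 bp) and Tnfaip3 (7226 bp), and in these the library lay -0.80, -1.07 and -0.62 from the mean of the other 5 on the log2(FPKM + 1) scale. The shortest were Nfkbia (1610 bp), Nfkbib (2169 bp) and Nfkbid (2346 bp), with 0.22, 0.32 and 0.13. Between them the order ran the other way, with -0.41 for Nfkbie (3045 bp) and -0.30 for Rela (3072 bp). Relb (3885 bp) had -0.094 and Nfkb2 (4584 bp) -0.025. Over the 10 genes, which share this library, Pearson's r between this deviation and log10 length was -0.855, as was Spearman's rho. With the trend on length removed from all 6 libraries, 8 of the 10 genes were negative (49.2% of all genes), and Nfkb2, Nfkbib and Nfkbid were lower at an unadjusted p under 0.05, where 4.5% of all genes were. The log2 fold changes were then -0.26 for Nfkb2 (unadjusted p = 0.019), -0.23 for Nfkbib (unadjusted p = 0.031) and -0.22 for Nfkbid (unadjusted p = 0.031), with limma adjusted p from 0.440 to 0.787 over the 10. With both the library left out and the trend removed, an alternative chosen after seeing the data, 9 of the 10 were negative (49% of all genes), the exception being Tnfaip3, and 6 had an unadjusted p under 0.05 (8.29% of all genes), with a lowest limma adjusted p of 0.222.

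**Figure D3:**
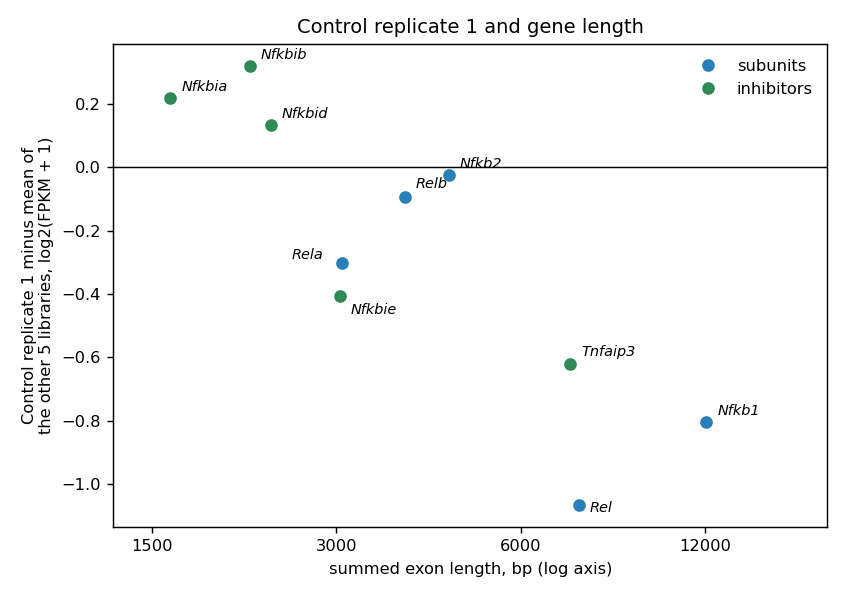
Difference between Control replicate 1 and the mean of the other 5 libraries on the log2(FPKM + 1) scale (vertical axis) against summed exon length in bp (horizontal log axis) for the 5 subunits (blue) and the 5 inhibitors (green). The points run from 0.32 for Nfkbib to -1.07 for Rel, with the 3 shortest genes above 0.

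Ratios between genes within a library do not depend on how that library was scaled. The FPKM ratio of Rel to Rela was 1.21, 1.12 and 1.11 in the DOPAC libraries, against 0.597, 0.911 and 0.918 in the controls. Every DOPAC library was above every control, and above 1, with and without Control replicate 1. Tnfaip3 over Rela was 0.339, 0.299 and 0.279 with DOPAC, against 0.205, 0.250 and 0.221 in the controls, again without overlap. These ratios had no test, and Rela is the denominator of both. Rel (7466 bp) and Tnfaip3 (7226 bp) are longer than Rela (3072 bp), and the trend on length was not removed from the ratios. Of single genes, 12.4% lay wholly higher and 4.8% wholly lower with DOPAC. The share among other gene pairs or sums was not counted. The ratio of Nfkbia to Rela was 1.28, 0.965 and 1.04 with DOPAC, against 1.46, 0.868 and 0.906 in the controls, so that the groups overlapped through Control replicate 1 alone. Relb over Rela and Nfkb2 over Nfkb1 also overlapped, with Nfkb2 over Nfkb1 at 0.863, 0.751 and 0.754 with DOPAC, against 1.38, 0.812 and 0.785 in the controls. Summed over the 5 inhibitors the level was 77.9, 67.2 and 69.8 FPKM with DOPAC, below each of the controls at 81.6, 78.9 and 82.3 FPKM. The 5 subunits summed to 119, 125 and 127 FPKM with DOPAC, between Control replicate 1 at 93.6 FPKM and the other controls at 147 and 143 FPKM.

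**Figure D4:**
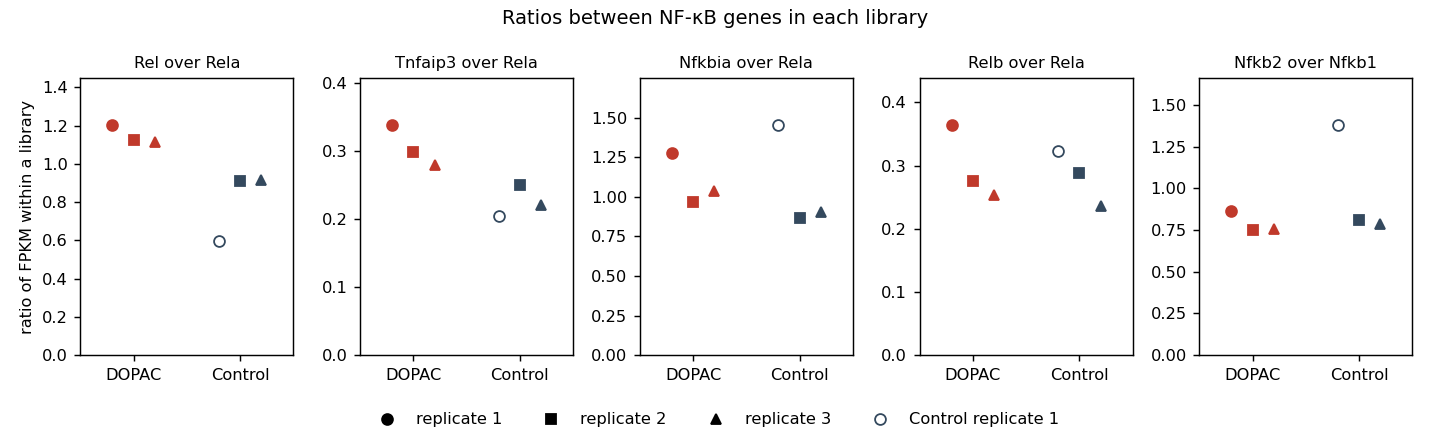
Ratio of the FPKM of 2 genes within each library (vertical axes, starting at 0) for 5 pairs, DOPAC libraries left in red and controls right in dark, with the open circle for Control replicate 1. Rel over Rela and Tnfaip3 over Rela separate the groups, and the other 3 pairs do not.

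Around the family, 6 lists followed the pathway from receptors to targets, and 0 genes in any of them passed the adjusted threshold (limma), as was so for all genes. The lists share some genes, such as Ripk1, Birc3 and Tnip1, which count in each list that holds them. Receptors of the TNF receptor family that feed NF-κB (10 of 15 analysed) had positive log2 fold changes in 8 and a median of 0.21. Beside them, 62.1% of all genes were positive, with a median of 0.066. Without Control replicate 1 the receptors were positive in 5, with a median of 0.10, beside 47.3% of all genes and -0.011. Tnfrsf9, the costimulatory receptor 4-1BB, had 161, 118 and 122 FPKM with DOPAC, against 79.8, 89.9 and 82.0 FPKM in the controls. Its log2 fold change was 0.65 and, without Control replicate 1, 0.62. Tnfrsf13b, the receptor TACI, had 6.44, 5.61 and 5.55 FPKM with DOPAC, against 4.03, 4.34 and 4.92 FPKM in the controls. These 2 receptors had the only unadjusted p under 0.05 in the list, at 0.00429 and 0.038 (limma adjusted p = 0.801 for each), beside 2.73% of all genes higher at that level. Without Control replicate 1, 4 of the 10 (Tnfrsf9, Tnfrsf13b, Tnfrsf4 and Tnfrsf18) were higher at that level, beside 5.57% of all genes. Tnfrsf1a (-0.22) was the 1 that was lower, beside 8.89% of all genes. Tnfrsf4, the receptor OX40, had a log2 fold change of 0.51 and Tnfrsf18, the receptor GITR, of 0.29, with groups that overlapped through Control replicate 1 alone. Without that library they had 0.68 and 0.38 (limma adjusted p = 0.295 and 0.331). Their DOPAC libraries then lay wholly above the controls, as they did for 15.3% of all genes. With the replicate number as a block the unadjusted p of limma was 0.00731 for Tnfrsf4, which was then under 0.05, and 0.0765 for Tnfrsf13b, which was then above it, while that of Tnfrsf9 was 0.00902.

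The IκB kinase complex and its upstream kinases (14 genes) had 10 positive values with a median of 0.18, and 4 positive values with a median of -0.095 without Control replicate 1. Of all genes, 62.1% and 47.3% were positive in these comparisons, with medians of 0.066 and -0.011. Chuk and Ikbkg, a catalytic and the regulatory subunit of the kinase, had log2 fold changes of 0.35 and 0.29 with all libraries and of 0.071 and 0.076 without that one. Ripk1 had 0.23, or 0.046 without it, and Tbk1 had 0.22, which turned to -0.031. TRAF and cIAP adaptors (14 genes) had 9 positive values and a median of 0.087, beside the same values for all genes. Without Control replicate 1 they had 6 positive values and a median of -0.021. With all libraries Traf6 was at 0.39, Birc2 at 0.37 and Birc3 at 0.29. These 3 were at 0.12, 0.045 and 0.071 without that library. In both lists 0 genes had an unadjusted p under 0.05 with all libraries, beside 4.19% of all genes. Without Control replicate 1, 3 genes of the kinase list (Ikbke, Prkcq and Map3k14) and 1 of the adaptor list (Traf5) were lower at that level and 0 higher, beside 8.89% of all genes lower.

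Genes of ubiquitin editing and turnover (24 of 27 analysed) had 16 positive values, beside 62.1% of all genes, and a median of 0.048, beside 0.066. Of them 0 had an unadjusted p under 0.05, beside 4.19% of all genes. Without Control replicate 1 there were 10 positive values, beside 47.3% of all genes, and a median of -0.045, beside -0.011. At an unadjusted p under 0.05, 1 gene was then higher (Tax1bp1) and 3 were lower (Rnf31, Rbck1 and Tnip1), beside 5.57% and 8.89% of all genes. Sharpin, of the linear ubiquitin ligase, had 6.30, 5.18 and 5.35 FPKM with DOPAC, against 7.03, 6.33 and 6.96 FPKM in the controls. Tnip1, a partner of A20, had a log2 fold change of -0.23, while Tax1bp1, another A20 partner, had 0.36 and the ligase gene Itch 0.47. The values of Tax1bp1 and Itch were 0.17 and 0.12 without Control replicate 1. Other IκB-like proteins and nuclear partners (14 genes) had 7 positive values, beside 62.1% of all genes, and a median of -0.015. Of them 0 had an unadjusted p under 0.05, beside 4.19% of all genes. Without Control replicate 1 these 14 genes had 4 positive values, beside 47.3% of all genes, and a median of -0.091. Among them Cdk9, a kinase of transcription elongation, had -0.22, Rps3 -0.27, Nkap 0.33 and Nkiras2, a small protein that binds IκB, 0.11. Without that library Cdk9 had -0.31 and was the 1 gene of the list with an unadjusted p under 0.05. Of all genes, 8.89% were lower and 5.57% higher at that level. Rps3 then had -0.041, Nkap 0.11 and Nkiras2 0.13.

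NF-κB target genes (38 of 41 tested) had 23 negative values with all libraries and 23 without Control replicate 1, beside 37.9% and 52.7% of all genes. Their medians were -0.026 and -0.073, beside 0.066 and -0.011 for all genes. Gadd45b, a stress-induced survival gene, had 7.95, 6.40 and 8.02 FPKM with DOPAC, against 10.4, 9.52 and 10.5 FPKM in the controls, with a log2 fold change of -0.40 (unadjusted p = 0.022; limma adjusted p = 0.801). Plek, the gene of pleckstrin, had 39.1, 34.4 and 38.1 FPKM with DOPAC, against 16.5, 27.0 and 25.3 FPKM in the controls, with a log2 fold change of 0.70 (unadjusted p = 0.010; limma adjusted p = 0.801). These 2 pointed in opposite directions and were the 2 target genes of 38 with an unadjusted p under 0.05, where 4.19% of all genes had one. Without Control replicate 1, 1 target gene was higher (Plek) and 4 were lower (Gadd45b, Tnip1, Stat5a and Ccnd2) at that level, beside 5.57% and 8.89% of all genes. Tnip1 was counted in the ubiquitin list as well. Genes named here for a p without that library, and not in the other comparison, were named after their values were seen. Irf4, a transcription factor of activated T cells, had a log2 fold change of 0.39, or 0.13 without Control replicate 1.

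**Figure D5:**
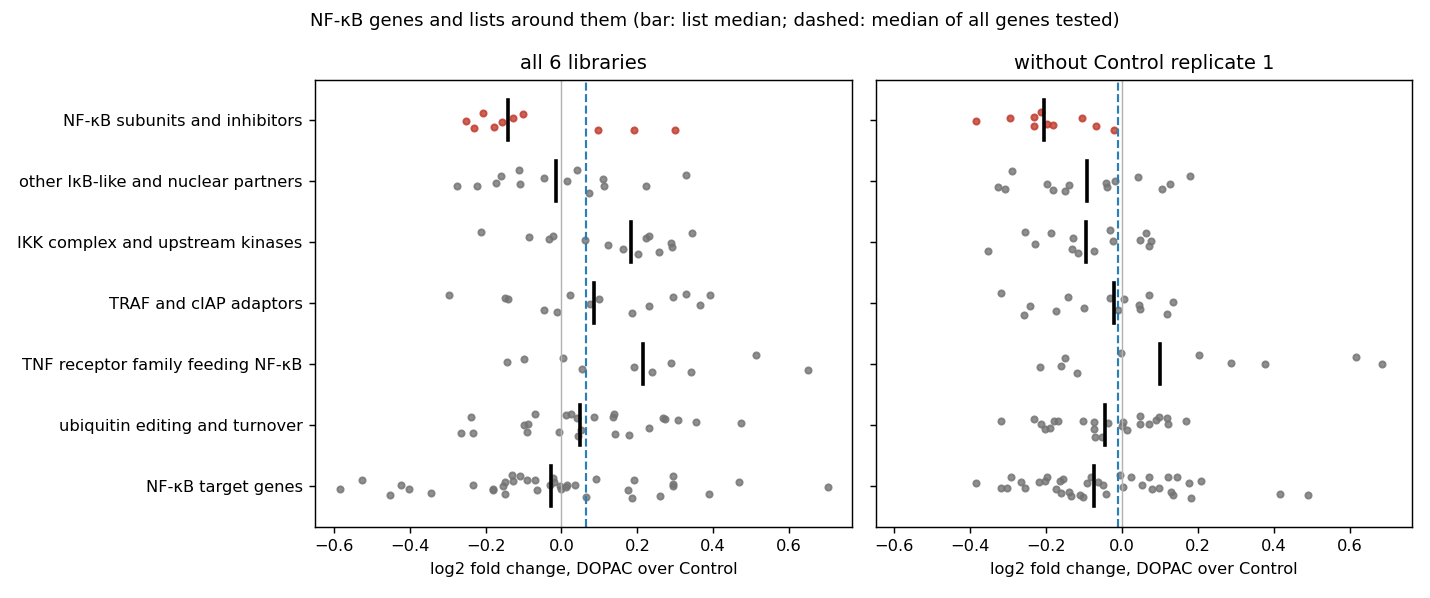
Log2 fold change, DOPAC over control (horizontal axes), of each gene (points; vertical scatter carries no value) of the NF-κB family (red) and of 6 pathway lists (grey), with all 6 libraries (left) and without Control replicate 1 (right). Black bars are list medians and dashed lines the median of all genes tested; the family's median is -0.14 on the left and -0.21 on the right, beside 0.066 and -0.011.

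Nfkbid had the lowest unadjusted p of the 10 genes. The 5 genes whose log2(FPKM + 1) ran most like it over the 6 libraries, among 6830 others with a mean of at least 5 FPKM, were Gm23969, Sharpin, Nle1, E130309D02Rik and Prcc. Pearson's r lay between 0.953 and 0.990 over 6 libraries and between 0.946 and 0.995 without Control replicate 1, given as a description of libraries that include both groups.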

How the data were processed

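Transcripts were measured in 6 libraries made, per the labels' protocols, with SMART-Seq HT and Nextera XT chemistry, neither of which marks strand. The submitters' processing notes name cutadapt 1.9, HISAT2 2.2.1 and the build mm10; no source used here gives the estimator, annotation or gene filter. What the authors deposited is a table of FPKM by gene and library, with their log2 fold change and p-values, per the file headers. The last 2 were not used for results. FPKM hold no counts, low values showed no whole-read steps, and depth is unknown, so no counting interval can be given. The sums lay between 292755 and 316035 FPKM with DOPAC and between 283818 and 310918 FPKM in the controls.

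Genes with a mean under 1 FPKM (288 of 11175) were left out and log2(FPKM + 1) was fitted, so that fold changes of low genes are understated. R 4.3.3 with limma 3.58.1 (trend) compared DOPAC with control over 10887 genes, with Benjamini-Hochberg adjustment over all of them and a threshold of 0.05. The fit was tested on simulated data, with independent noise of the same spread for a gene in every library. The simulation held no library that deviates with gene length, as Control replicate 1 does, so it does not cover that case. Positions and summed exon lengths came from GENCODE M21 (GRCm38), with lengths for 99.2% of genes. The genes, the lists and the rule for named genes (the 10 genes, and up to 4 genes per list with the smallest p and 5 FPKM or more in the group with more) were chosen with earlier results of these data known. One title spells the treatment differently from its library name and treatment label, which were used. A list of 1 arm of the pathway is not reported here.

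Deviations from group means correlated at 0.34, 0.16 and 0.28 between same-numbered libraries. Each was above 0.1, so the numbers were treated as pairs in an alternative fit with a replicate block. Differently numbered libraries ranged from -0.33 to 0.24. DOPAC replicate 2 with Control replicate 3 (0.19) and DOPAC replicate 3 with Control replicate 2 (0.24) were both above the lowest same-numbered value. The pairing is therefore uncertain, and no label ties a number to an animal or a day.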

Additional observations from a re-analysis of the deposited data

How the results depend on the processing

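The count of genes past the adjusted threshold was 0 with all 6 libraries, with the replicate block (lowest limma adjusted p 0.439) and in every other alternative except 3: 2 genes passed with array weights, a fit that did not fully converge, 2 without Control replicate 1 and 1 with that library left out and the length trend removed. None of these was one of the 10 NF-κB genes. When 1 library was left out the count ranged between 0 and 2. The median log2 fold change of the 10 genes stayed negative under all alternatives and moved by less than the spread between replicates (SD 0.14). That spread was about as large as the median itself, -0.14 with all 6 libraries. For example, the median was -0.083 without Control replicate 2 and -0.24 with array weights. The log2 fold change of Nfkb1 changed sign with array weights (-0.14), with the length trend removed (-0.091), with Control replicate 1 left out and the replicate block added (-0.16) and with it left out and the trend removed (-0.16), and ranged from -0.21 to 0.26 when 1 library was left out. That of Rel was -0.043 and -0.026 in the last 2 settings and ranged from -0.070 to 0.49. Tnfaip3 had -0.032 with array weights and -0.032 with the library left out and the block added, and ranged from -0.020 to 0.33. Nfkbie ranged from -0.30 to 0.039 and Tbk1 from -0.031 to 0.36, with -0.016 when the library was left out and the trend removed. With Control replicate 1 left out and the replicate block added, 6 of the 10 genes had an unadjusted p under 0.05, all lower, as had 9.9% of all genes, and 0 passed (limma, lowest adjusted p 0.285). DOPAC replicate 1 has no partner in that fit, so its fold changes rest on replicates 2 and 3 of each group. Adding the block to all 6 libraries changed no call at the adjusted threshold; at an unadjusted p of 0.05 it changed none of the 10 genes, and of the other named genes it took Tnfrsf4 below and Tnfrsf13b above that level. Pseudocount, filter and the robust variance model changed no sign of the 10 genes. The cause of the sign changes was not tested beyond these settings. Depth is unknown, and 3 libraries per group limit the precision.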
